A study of Sus scrofa with 16 samples.

Results

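The Krüppel-like factors (KLFs) are transcription factors whose C-terminal run of C2H2 zinc fingers binds GC-rich and CACCC-type DNA. Their N-terminal regions differ and sort them into activators (KLF2, KLF4, KLF5, KLF6 and KLF7), repressors that recruit the corepressor CtBP (KLF3, KLF8 and KLF12) and factors that bind the corepressor SIN3A (KLF9, KLF10, KLF11, KLF13 and KLF16). KLF15 stands outside these classes. Several are immediate targets of flow, serum, glucocorticoid or TGF-beta signals. In vascular and cardiac tissue they are best known from endothelium (KLF2, KLF4), smooth muscle (KLF4, KLF5) and cardiac fibroblasts and muscle (KLF15).

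The set described here is 10 named KLF genes, KLF2, KLF3, KLF4, KLF5, KLF6, KLF9, KLF10, KLF11, KLF13 and KLF15, of 29552 genes in the count table. They were taken by name. All 10 passed the filter on low counts, and their counts ran from 22 to 6654 per library. The table holds 17 KLF genes in all.

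The libraries were made from polyA RNA of valvular interstitial cells, which populate the aortic valve leaflet and make its matrix, from pigs aged 5 to 6 months. Cells of 4 male and 4 female biological replicates were kept for 48 hours in Media 199 with 1% fetal bovine serum; every culture also held penicillin, streptomycin and the antifungal amphotericin B. The surface was either a PEG-norbornene hydrogel with an elastic modulus of about 5.8 kPa, on which the labels call the cells fibroblasts, or tissue culture plastic, on which they call them myofibroblasts. Sex and surface together give 4 groups of n = 4, 16 libraries in all. The groups share medium, serum and time. The samples hold no other stiffness and no uncultured tissue beside them. The study's title names sex differences in valve myofibroblasts as its question.

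Total counts per library ran from 16897547 in male gel 2 to 27436151 in female gel 3. All 9 interstitial fibroblast markers examined (VIM, COL1A1, COL1A2, COL3A1, DCN, LUM, PDGFRB, THY1 and S100A4) were tested, with a summed level of 37400 to 54500 CPM (counts per 1000000 counts of the library). The 6 epithelial markers did not pass the filter and summed to at most 0.452 CPM. Leukocyte markers summed to between 5.7 and 38 CPM, with PTPRC at 0 in 15 of 16 libraries. Endothelial markers were present: their 16 genes summed to 164 to 300 CPM in male gel, 213 to 369 in male plastic, 187 to 307 in female gel and 225 to 632 in female plastic. The highest sums within each group were in the libraries numbered male 4, female 4 (gel) and female 1 (plastic). Among defining endothelial genes, CDH5 ran from 4.97 to 174 CPM, VWF from 0.135 to 4.17 CPM, and KDR was at 0 in male gel 2. ERG, at 92.8 to 252 CPM, and PECAM1, at 21.5 to 124 CPM, made up a large part of the endothelial sums. The list that moved most with the surface was that of smooth muscle and pericyte markers: its 8 genes summed to 369 to 532 CPM over the gel libraries and 1430 to 2590 CPM over the plastic libraries. Of the 7 tested, 5 (MYH11, CNN1, DES, CSPG4 and MCAM) were higher and 2 (KCNJ8 and ABCC9) lower on plastic in each sex. By the threshold given below, 12.9% of all genes tested were called higher and 12.9% lower in male cells, and 12.7% and 11.3% in female cells. Mean ABCC9 fell from 8.81 to 2.42 CPM in male cells and from 6.62 to 1.81 CPM in female cells. RGS5, which was not tested, was at most 0.145 CPM. MYH11, the smooth muscle myosin heavy chain, ran from 15.7 to 76 CPM on gel and 295 to 937 CPM on plastic.

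The first question was whether the 10 KLF genes were at other levels on plastic than on gel. In male cells KLF2, KLF5 and KLF6 were higher on plastic and KLF15 was lower. In female cells KLF5, KLF6 and KLF10 were higher and KLF15 was lower. KLF5 rose most, by 2.44-fold in male and 2.92-fold in female cells, and KLF15 fell to 0.426 and 0.451 of its gel level. KLF3, KLF4, KLF9, KLF11 and KLF13 were called in neither sex. A gene is called here when its Benjamini-Hochberg adjusted p over all 14530 tested genes in edgeR's quasi-likelihood test is under 0.05. Changes are log2 values with their standard error (SE), and levels are CPM scaled between libraries by TMM factors. CPM takes no account of transcript length, so levels are compared within a gene and not between genes.

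In male cells 4 of the 10 genes were called, beside 25.8% of all genes tested. The 3 higher ones stand beside 12.9% of all genes called higher, and the 1 lower one beside 12.9% called lower. In female cells 4 of 10 were called, beside 23.9% of all genes, with 3 higher beside 12.7% and 1 lower beside 11.3%. The median change of the 10 was 0.19 in male and 0.10 in female cells, against -0.03 and -0.04 over all tested genes. KLF5, KLF6 and KLF15 were called in the same direction in both sexes, 30% of the set, as were 16.5% of all genes tested. The sign of the change was the same in both sexes for 9 of 10, with KLF11 the exception. No test was made of the set as a whole, since its members were known from earlier results on these data.

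**Figure D1:**
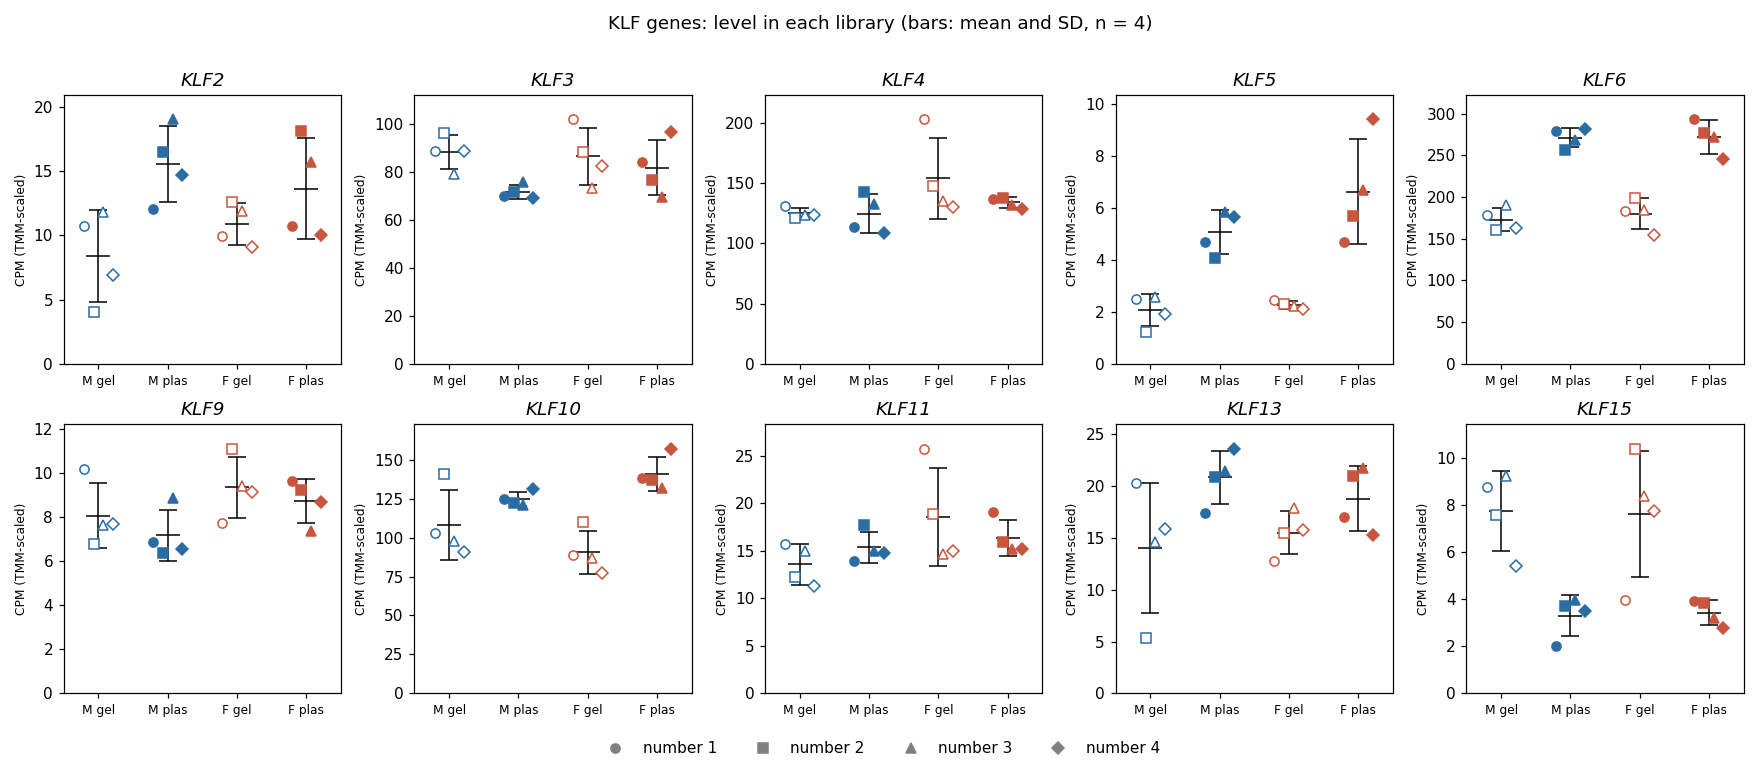
Level of each of the 10 KLF genes in every library, in CPM on a linear axis from 0, by sex (M male in blue, F female in red) and surface (open symbols gel, filled symbols plastic). Symbols mark the replicate number and bars the mean and SD of n = 4; the KLF5 and KLF6 values on plastic all lie above those on gel, whereas KLF15 lies lower on plastic and KLF4 overlaps.

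Among the activators, KLF5 (chromosome 11, 45370009 to 45386673, build Sscrofa11.1) is the factor of proliferating smooth muscle that activates the PDGFA gene. Its levels were 2.49, 1.24, 2.57 and 1.93 CPM in male gel 1 to 4, and 4.69, 4.07, 5.86 and 5.66 CPM in male plastic 1 to 4. In female gel they were 2.45, 2.32, 2.21 and 2.1 CPM, and in female plastic 4.71, 5.71, 6.69 and 9.41 CPM. Every plastic library lay above every gel library of either sex. The log2 change was 1.29 (SE 0.25, adjusted p = 0.00101) in male and 1.54 (SE 0.24, adjusted p = 0.000208) in female cells. The summed smooth muscle and pericyte markers moved with the surface alongside KLF5, from at most 532 CPM on gel to at least 1430 CPM on plastic. KCNJ8 and ABCC9 of that list went the other way. Within female plastic the sums were 1430, 2590, 2550 and 1550 CPM in numbers 1 to 4. Number 1 was lowest in both the sum and KLF5, while number 4, highest in KLF5, had a sum below numbers 2 and 3. In the same order, the sums were 2400, 2220, 2160 and 1850 CPM in male plastic. They were 532, 393, 462 and 369 CPM in male gel and 419, 532, 491 and 377 CPM in female gel. The part of smooth muscle-type cells in the KLF5 and KLF4 values was not tested. KLF5 was the member with the fewest counts, 22 to 71 per gel library and 93 to 223 per plastic library.

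KLF6 (chromosome 10, 66488445 to 66497830) is a widely expressed factor that is induced by injury and activates TGF-beta pathway genes. It was at 178, 161, 190 and 163 CPM in male gel and 279, 256, 268 and 281 CPM in male plastic. In female cells it was at 183, 199, 184 and 154 CPM on gel and 293, 277, 272 and 245 CPM on plastic. Again no gel library reached the lowest plastic library. KLF6 rose by 0.65 (SE 0.09, adjusted p = 7.74e-05) in male and 0.60 (SE 0.09, adjusted p = 0.000176) in female cells, a fold of 1.57 and 1.51. These were the smallest p-values among the 10 genes in either sex.

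KLF2 (chromosome 2, 61270733 to 61273037) is the flow-induced factor of endothelium. It was at 10.7, 4.01, 11.8 and 6.91 CPM in male gel and 12, 16.5, 19.0 and 14.7 CPM in male plastic. The male groups did not overlap, although male gel 3 and male plastic 1 nearly met. The change was 0.88 (SE 0.27, adjusted p = 0.0257), a fold of 1.85. In female cells KLF2 was at 9.95, 12.6, 11.9 and 9.09 CPM on gel and 10.7, 18.1, 15.7 and 10 CPM on plastic, with overlap, and was not called (0.32, SE 0.27, 95% interval -0.25 to 0.90, adjusted p = 0.425). KLF2 no longer passed in male cells once male gel 4 (adjusted p = 0.0652), male plastic 2 (0.0573) or male plastic 3 (0.0794) was left out, nor when only the 8 male libraries were fitted (0.055). Male gel 2 held the lowest value, and without it the change was 0.66 with an adjusted p of 0.0493.

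Because KLF2 is known from endothelium, its values stand here beside the endothelial markers. Of the 16 endothelial genes, 3 were called higher on plastic in male and 4 in female cells, with 0 called lower. The shares over all genes tested were 12.9% higher and 12.9% lower in male cells, and 12.7% higher and 11.3% lower in female cells. The female plastic libraries with the highest endothelial sums, numbers 1 (632 CPM) and 4 (470 CPM), had the lowest KLF2 of their group, while numbers 2 and 3 (249 and 225 CPM) had the highest. In male plastic, where KLF2 was called, the order was another: number 1 had both the lowest sum (213 CPM) and the lowest KLF2, and numbers 2, 3 and 4 had sums of 220, 297 and 369 CPM beside KLF2 levels of 16.5, 19.0 and 14.7 CPM. In female gel the sums were 265, 205, 187 and 307 CPM in numbers 1 to 4, beside KLF2 levels of 9.95, 12.6, 11.9 and 9.09 CPM. Numbers 1 and 4, with the highest sums, thus had the lowest KLF2 there. In male gel the sums were 164, 216, 192 and 300 CPM, and numbers 2 and 4, with the highest sums, had the lowest KLF2. The markers of male gel 2 were split, however. Its sum was mostly ERG (140 CPM) and PECAM1 (47.9 CPM), as in the other male gel libraries. In male gel 1, 3 and 4 ERG was at 99.9, 92.8 and 108 CPM and PECAM1 at 34.8, 55.1 and 83.1 CPM. EMCN was at 7.96 CPM in male gel 2, within a group range of 1.54 to 9.06 CPM. Male gel 2 had the lowest CDH5 (4.97 CPM) and TIE1 (0.621 CPM) of male gel, and 5 of the 16 markers were at 0. Without male 4, female 1 and female 4 on both surfaces, KLF2 changed by 0.84 in male cells and lost its call (adjusted p = 0.0901). The part of endothelial cells in the KLF2 level was not tested further, and in bulk RNA a different number of cells of a type and a different amount of RNA per cell cannot be told apart.

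KLF4 (chromosome 1, 248604817 to 248609574), a reprogramming factor that represses smooth muscle genes, was not called in either sex. Its levels were 131, 121, 124 and 124 CPM in male gel and 114, 143, 133 and 109 CPM in male plastic. The female values were 203, 148, 135 and 130 CPM on gel and 137, 138, 132 and 129 CPM on plastic. The groups overlapped, and female gel 1 stood above all 15 other libraries. The change was -0.01 in male cells (95% interval -0.27 to 0.26, adjusted p = 0.978) and -0.20 in female cells (-0.46 to 0.06, adjusted p = 0.268). Without female gel 1 the female value was -0.04. Over the same surfaces the smooth muscle genes TAGLN and ACTA2, which KLF4 is known to repress, changed by 1.41 (SE 0.26, adjusted p = 0.000656) and 2.32 (SE 0.31, adjusted p = 4.64e-05) in male cells and by 1.21 (SE 0.25, adjusted p = 0.00225) and 2.18 (SE 0.31, adjusted p = 8.85e-05) in female cells.

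KLF15 (chromosome 7, 53877813 to 53890558) is a glucocorticoid-inducible regulator of amino acid and glucose metabolism that restrains matrix genes in cardiac fibroblasts. It was the only member called lower. Its levels were 8.77, 7.57, 9.24 and 5.43 CPM in male gel and 2.03, 3.72, 3.95 and 3.51 CPM in male plastic. In female cells they were 3.96, 10.4, 8.39 and 7.75 CPM on gel and 3.91, 3.83, 3.21 and 2.78 CPM on plastic. Female gel 1 was thus at the level of plastic, and the female groups were kept from overlapping by 3.96 against 3.91 CPM. The change was -1.23 (SE 0.27, adjusted p = 0.00341) in male and -1.15 (SE 0.27, adjusted p = 0.00553) in female cells. Both calls held under each of 25 other analyses per sex, at values from -1.38 to -1.06 in male and -1.40 to -0.97 in female cells.

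**Figure D2:**
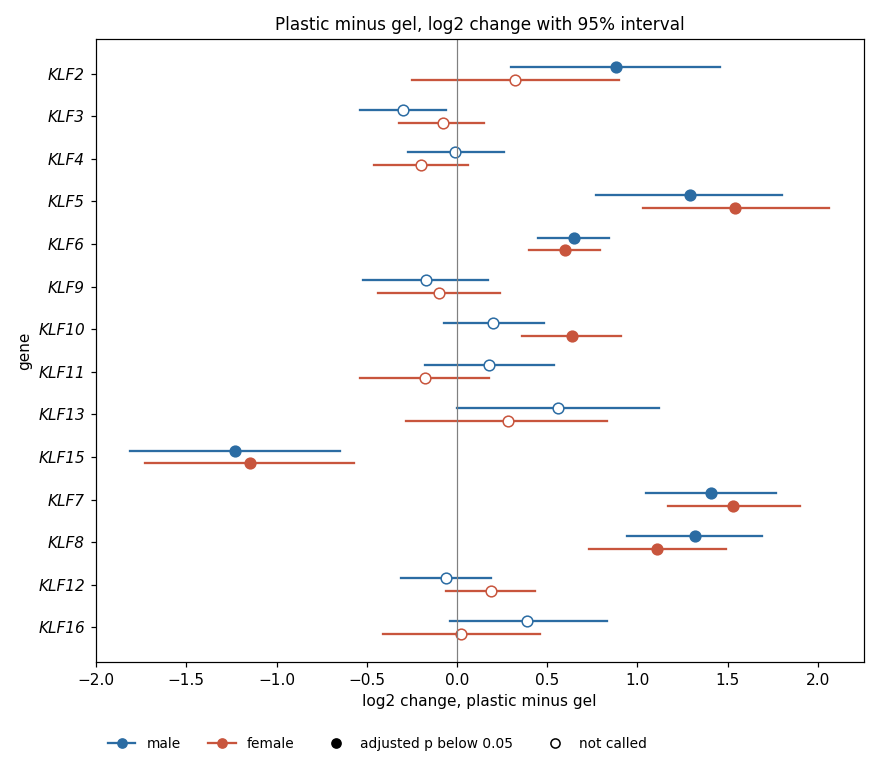
Log2 change from gel to plastic with its 95% interval for the 10 KLF genes and, below them, KLF7, KLF8, KLF12 and KLF16, in male (blue) and female (red) cells. Filled points passed an adjusted p of 0.05; KLF5, KLF6, KLF7 and KLF8 lie right of 0 and KLF15 left of 0 in both sexes.

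Among the SIN3A-binding members, KLF10 (chromosome 4, 34430132 to 34435990), the TGF-beta-inducible early gene TIEG1, was the only one called. It was at 88.6, 110, 86.6 and 77.5 CPM in female gel and 138, 137, 132 and 157 CPM in female plastic. The female groups did not overlap, and KLF10 rose by 0.64 (SE 0.13, adjusted p = 0.00172), a fold of 1.55. In male cells it was at 103, 141, 97.6 and 91.0 CPM on gel and 125, 122, 121 and 131 CPM on plastic. Here male gel 2 exceeded every male plastic library, and the change was not called (0.20, SE 0.13, adjusted p = 0.261). Without male gel 2 it was 0.36, with an adjusted p of 0.0196. The female call was lost without male 4, female 1 and female 4 on both surfaces (0.47, adjusted p = 0.111), which leaves 2 female replicates per surface.

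KLF13 (chromosome 1, 143499136 to 143540233), known as an activator of the chemokine gene CCL5 in T cells, was at 20.3, 5.37, 14.6 and 15.9 CPM in male gel and 17.4, 20.9, 21.5 and 23.6 CPM in male plastic. Female values were 12.8, 15.5, 17.9 and 15.8 CPM on gel and 17, 21.0, 21.8 and 15.3 CPM on plastic. Male gel 2 was the lowest of the 16 libraries, and the groups overlapped in both sexes. The change was 0.56 (SE 0.26, adjusted p = 0.131) in male and 0.28 (SE 0.26, adjusted p = 0.49) in female cells. The male value depended on which gel library was left out: it was 0.79 (adjusted p = 0.0423) without male gel 1 and 0.30 (adjusted p = 0.19) without male gel 2. CCL5 itself changed by -4.95 (SE 0.76, adjusted p = 0.000167) in male cells, from 3.59 to 0.109 CPM, and by -4.13 (SE 0.69, adjusted p = 0.000378) in female cells, from 3.94 to 0.219 CPM. Since 3 counts are worth 0.102 to 0.169 CPM in these libraries, the fitted size of the CCL5 change is imprecise.

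KLF11 (chromosome 3, 126419011 to 126429890), the related TGF-beta-inducible factor TIEG2, was at 15.7, 12.2, 15 and 11.3 CPM in male gel and 13.9, 17.7, 15 and 14.8 CPM in male plastic. In female gel it was at 25.7, 18.9, 14.6 and 15 CPM, and in female plastic at 19.1, 15.9, 15.2 and 15.2 CPM. All groups overlapped. The change was 0.18 (SE 0.17, adjusted p = 0.479) in male and -0.18 (SE 0.17, adjusted p = 0.484) in female cells. KLF9 (chromosome 1, 223723613 to 223747661), a thyroid hormone- and glucocorticoid-inducible factor, was at 8.07 ± 1.48 CPM in male gel and 7.17 ± 1.15 CPM in male plastic (mean ± SD, n = 4). It was at 9.36 ± 1.39 CPM in female gel and 8.72 ± 0.995 CPM in female plastic, with overlap in both sexes. Its change was -0.17 (95% interval -0.52 to 0.17, adjusted p = 0.471) in male and -0.10 (-0.44 to 0.24, adjusted p = 0.695) in female cells.

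KLF3 (chromosome 8, 30024978 to 30060981), the CtBP-binding repressor of the set, was at 88.9, 96.5, 79.3 and 88.9 CPM in male gel and 69.9, 71.8, 75.9 and 69.0 CPM in male plastic. The male groups did not overlap, as held for 5 of the 10 genes in male cells beside 28.9% of all genes tested. In female cells that count was 4, beside 27.7%. The male change of -0.30 (SE 0.11, adjusted p = 0.0582) was not called, but passed with the replicate as a block (-0.30, adjusted p = 0.0458) and in the fit of the 8 male libraries (0.048). It also passed without male gel 3 (adjusted p = 0.0453), female gel 1 (0.0436) or female plastic 4 (0.0383). Female values were 102, 88.5, 73.3 and 82.5 CPM on gel and 84.1, 76.7, 69.8 and 96.6 CPM on plastic, with overlap and a change of -0.08 (SE 0.11, adjusted p = 0.637). The low-coordinate end of KLF3 overlaps the annotated noncoding gene LOC100510918 (chromosome 8, 29837647 to 30025429), which had at most 105 counts in a library. KLF13 contains LOC102164789, with at most 2 counts, and no other annotated gene overlapped the other 8 members.

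Libraries of the same sex and number deviated from their group means together, so each plastic library was also set against the gel library of its number. KLF2, KLF5 and KLF6 were higher on plastic in 8 of 8 such pairs and KLF15 was lower in 8 of 8. The KLF6 log2 ratios were the tightest of these, from 0.48 to 0.78. The KLF5 ratios ran from 0.91 (male 1) to 2.16 (female 4). KLF2 ratios ran from 0.10 (female 1) to 2.04 (male 2), and KLF15 ratios from -2.11 (male 1) to -0.02 (female 1). KLF10 was higher on plastic in 7 of 8 pairs, with male 2 the exception at -0.21. KLF3 was lower in 7 of 8, with female 4 the exception at 0.23. KLF13 was higher in 6 of 8, KLF4 and KLF9 were each lower in 6 of 8, and KLF11 was higher in 5 of 8. The share of all genes tested with 8 of 8 pairs in the same direction is not given here, so these counts are descriptions.

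**Figure D3:**
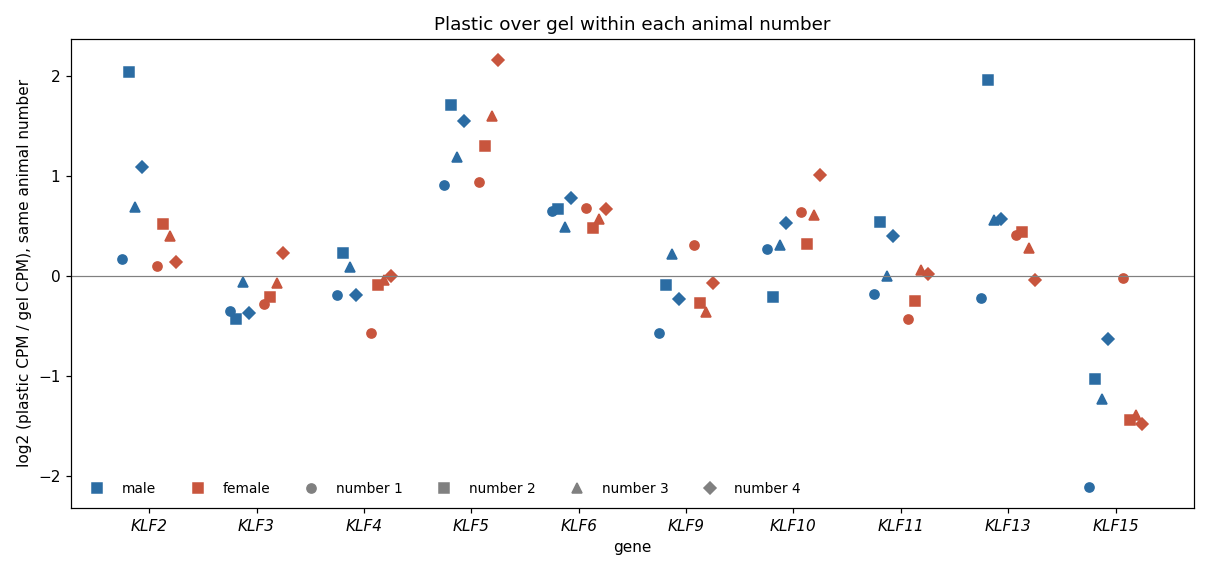
Log2 ratio of the plastic to the gel CPM for libraries of the same sex and number, for each of the 10 KLF genes (male blue, female red; symbols mark the number). All 8 ratios of KLF2, KLF5 and KLF6 are above 0 and all 8 of KLF15 below 0; male 2 stands high in KLF2 (2.04) and KLF13 (1.96).

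The spread within groups differed between members. In male gel the coefficient of variation (SD over mean, n = 4) ran from 3.22% for KLF4 to 44.7% for KLF13, with a median of 19.5%. The other groups had medians of 12.4% (male plastic), 15% (female gel) and 12.7% (female plastic). Male gel 2 was the lowest of its group in 6 of the 10 genes and the highest in 2, and was the lowest in 39.6% and the highest in 36.5% of all tested genes. After the group means were subtracted, correlations of log2 CPM between the 45 pairs of members over the 16 libraries ran from -0.69 to 0.81, with a median of 0.12. Without male gel 2 the median was 0.15 and the range -0.60 to 0.82, but single pairs moved. KLF10 and KLF13, the lowest pair at -0.69, were at -0.13 without that library, while KLF4 and KLF11 went from 0.81 to 0.82. Libraries of the same sex and number deviated together and depth differed between libraries, so these correlations are descriptions.

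The tested genes most like each member in those deviations differed from member to member. KLF2 was most like LOC106508380, PPDPF and the ribosomal protein gene RPS15 (Pearson r of 0.97, 0.97 and 0.96 over 16 libraries, 0.93 to 0.95 without male gel 2). KLF13 was most like FAAP20, ZNF768 and METRN (0.97, 0.96 and 0.96). Their r fell to between 0.80 and 0.86 without male gel 2. KLF10 was most like GNA13, a G protein alpha subunit (0.95, and 0.93 without male gel 2). KLF4 was most like the splicing factor gene ESRP2 (0.93), KLF9 like TUT1 (0.90), KLF5 like SSC5D (0.90), KLF6 like the aspartate aminotransferase gene GOT1 (0.89), KLF11 like RETSAT (0.89) and KLF3 like LOC102163521 (0.88). KLF15 had the least close match, LOC100525027 at 0.84. These are the highest of 14529 correlations each, and no test was made of them. Female gel 1, the highest of the 16 libraries in KLF4 and KLF11, was not left out of these correlations.

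Of the other KLF genes, KLF7 and KLF8 rose on plastic in both sexes. KLF7 (chromosome 15, 110282399 to 110380165), an activator known from neurons, was at 134, 140, 119 and 92.4 CPM in male gel and 354, 311, 325 and 297 CPM in male plastic. In female cells it was at 100, 143, 127 and 87.1 CPM on gel and 242, 366, 383 and 332 CPM on plastic. No gel library reached the lowest plastic library. The change was 1.41 (SE 0.17, adjusted p = 1.87e-05) in male and 1.53 (SE 0.17, adjusted p = 9.25e-06) in female cells. KLF8 (X chromosome, 48663063 to 48752359), a CtBP-binding factor, rose from 4.22 ± 0.386 to 10.5 ± 1.13 CPM in male cells (mean ± SD, n = 4), a change of 1.32 (SE 0.18, adjusted p = 5.21e-05). In female cells KLF8 rose from 4.50 ± 1.15 to 9.71 ± 1.17 CPM (1.11, SE 0.18, adjusted p = 0.000243).

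KLF12, a CtBP-binding repressor, and KLF16, a SIN3A-binding factor, were not called, with changes of -0.06 and 0.39 in male and 0.19 and 0.02 in female cells. Among the 14 tested KLF genes, 5 were thus higher and 1 lower on plastic in each sex. This stands beside 12.9% of all genes called higher and 12.9% lower in male cells, and 12.7% and 11.3% in female cells. The 3 other KLF genes did not pass the filter. KLF14 had at most 7 counts in a library. KLF1, the erythroid factor, and KLF17 had 0 counts in all 16 libraries, which allows a level of up to 0.102 to 0.169 CPM per library for counting error only.

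**Figure D4:**
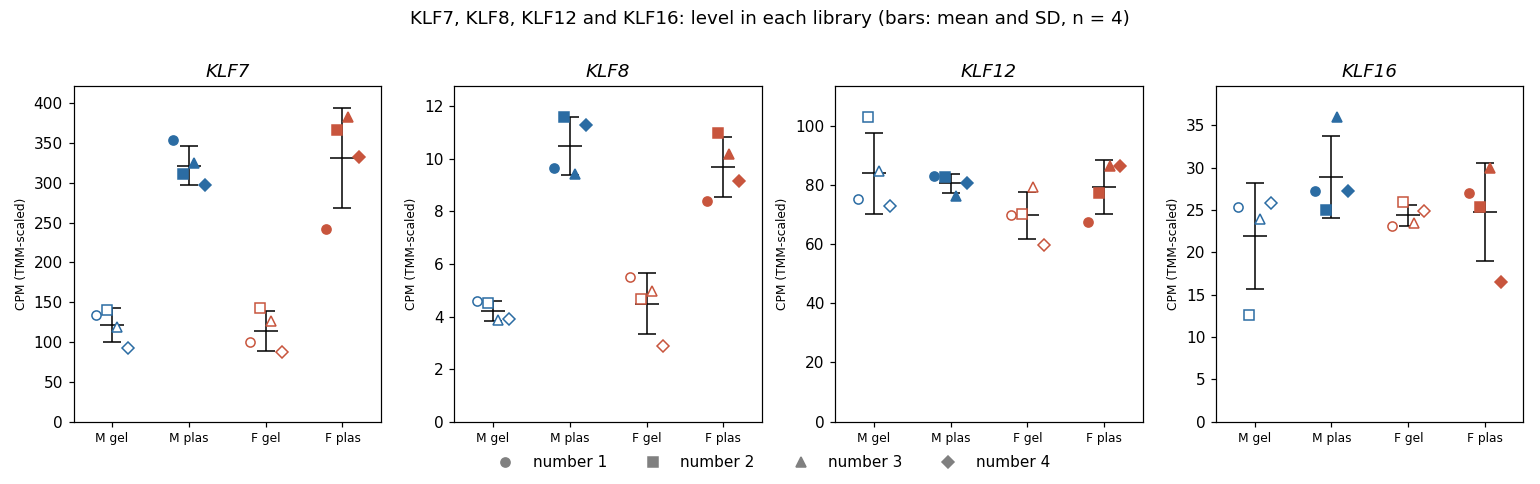
Level of KLF7, KLF8, KLF12 and KLF16 in every library, in CPM on a linear axis from 0, by sex (M male in blue, F female in red) and surface (open gel, filled plastic), with mean and SD of n = 4. KLF7 and KLF8 on plastic lie above every gel library of either sex, and KLF12 and KLF16 overlap.

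Genes of the pathways that feed or use these factors were described from lists named for this purpose. The ERK5-MEF2 arm carries flow signals to KLF2 and KLF4, and the CCM proteins hold it back. Of its 12 genes, 4 were higher and 0 lower on plastic in male cells, and 2 higher and 0 lower in female cells, with a median of 0.15 in both. Of all genes tested, 12.9% were called higher in male and 12.7% in female cells, so the female count is near that share. MEF2D, a transcription factor at its end, rose by 1.01 (SE 0.10, adjusted p = 4.02e-06) in male and 0.81 (SE 0.10, adjusted p = 3.17e-05) in female cells. The upstream kinase gene MAP3K3 and MAPK7, which encodes ERK5, rose in male cells (0.57, adjusted p = 0.000896, and 0.79, adjusted p = 0.011). In female cells they changed by 0.28 (adjusted p = 0.0695) and 0.39 (adjusted p = 0.198). Male gel 2 was the lowest male gel library for both genes. It held 31.5 CPM of MAP3K3 (group median 42.3) and 32.2 CPM of MAPK7 (group median 78.1). The difference of the surface changes between the sexes was called for 0 of the 12 genes.

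The glucocorticoid list holds receptors and responsive genes of the hormone that induces KLF9 and KLF15. Of its 10 genes, 0 were higher and 5 lower in male cells, and 0 higher and 4 lower in female cells, with medians of -0.88 and -0.43. Of all genes tested, 12.9% and 11.3% were called lower. CEBPD, a transcription factor also induced by cytokines, fell from 414 to 78.3 CPM in male cells (-2.40, SE 0.14, adjusted p = 1.13e-08) and from 448 to 76.9 CPM in female cells (-2.54, SE 0.14, adjusted p = 6.34e-09). HSD11B1, the enzyme that regenerates active glucocorticoid inside cells, fell by 3.15 (adjusted p = 1.96e-05) and 3.07 (adjusted p = 2.74e-05) on the log2 scale. The secreted protein gene CRISPLD2 fell by 1.95 (adjusted p = 1.53e-05) and 2.37 (adjusted p = 3.08e-06). Mean levels of FKBP5 and ZBTB16, also on the list, were lower on plastic too. FKBP5 went from 56.5 to 29 CPM in male and from 50.5 to 38.6 CPM in female cells, where the groups overlapped. ZBTB16 went from 15.2 to 2.68 CPM in male and from 11.5 to 2.05 CPM in female cells. The list did not move as one: the glucocorticoid-induced genes TSC22D3, PER1 and SGK1 were not called, with values of 0.35, 0.36 and 0.62 in male cells (adjusted p = 0.25, 0.448 and 0.199) and -0.03, -0.09 and 0.54 in female cells (adjusted p = 0.945, 0.872 and 0.275). The receptor gene NR3C1 changed by -0.16 (adjusted p = 0.355) and -0.05 (adjusted p = 0.787).

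The TGF-beta list was set beside KLF10 and KLF11. Of its 13 genes, 3 were higher and 1 lower in male cells and 5 higher and 1 lower in female cells, with medians of 0.10 and 0.11. Called in either direction were 25.8% of all genes in male and 23.9% in female cells, and the male count is near that share. The ligand genes TGFB2 and TGFB3 rose by 1.75 (SE 0.19, adjusted p = 6.67e-06) and 2.60 (SE 0.25, adjusted p = 1.8e-06) in male cells. In female cells they rose by 2.04 (SE 0.19, adjusted p = 1.77e-06) and 2.40 (SE 0.24, adjusted p = 3.66e-06). SMAD3, a signal carrier of the pathway, fell by 0.38 (adjusted p = 0.0261) and 0.41 (adjusted p = 0.0187). SMAD7, the inhibitory SMAD that KLF10 is known to repress, changed by -0.11 (adjusted p = 0.453) and -0.23 (adjusted p = 0.105).

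Textbook target genes of the members were 15, of which 12 were tested: 4 were higher and 2 lower in each sex, beside the same 25.8% and 23.9% of all genes. Besides TAGLN, ACTA2 and CCL5, given above, PDGFA, a growth factor gene that KLF5 activates, rose by 0.76 (SE 0.15, adjusted p = 0.00148) in male and 0.78 (SE 0.15, adjusted p = 0.00123) in female cells. MAOB, a target of KLF11, fell from 4.44 to 1.46 CPM in male cells (-1.61, SE 0.51, adjusted p = 0.0293) and from 6.31 to 1.04 CPM in female cells (-2.60, SE 0.53, adjusted p = 0.00174). The list was drawn from other tissues, and its genes answer to many factors.

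The second question was whether the KLF genes differed between female and male cells. None of the 10 was called in edgeR's test on gel, beside 0.103% of all genes called (0.00688% higher and 0.0964% lower in female cells), or on plastic, beside 0.124% (0.0275% higher and 0.0964% lower). DESeq2 and limma-voom also called 0 of them on either surface. At an unadjusted p under 0.05 there were 2 on gel, KLF4 and KLF11, and 0 on plastic, with 560 and 284 of all genes. KLF4 was higher in female gel by 0.30 (95% interval 0.04 to 0.56, adjusted p = 0.852) and KLF11 by 0.45 (0.09 to 0.81, adjusted p = 0.852). Both values were carried in large part by female gel 1: without it they were 0.14 and 0.25. That library had an endothelial marker sum of 265 CPM, against 187 to 307 in the other female gel libraries, and the part of other cell types was not tested.

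The interval of the female minus male difference was narrowest for KLF6, from -0.14 to 0.25 on gel and -0.19 to 0.20 on plastic. It was wide for KLF2 (-0.21 to 0.95 on gel and -0.77 to 0.38 on plastic) and for KLF15 (-0.59 to 0.53 on gel and -0.53 to 0.64 on plastic). These intervals hold the differences that the data of 4 replicates per sex allow. On plastic KLF10 did not overlap between the sexes, the 1 gene of the 10 to do so beside 2.85% of all genes, with female values of 132 to 157 CPM and male values of 121 to 131 CPM, and it was not called (0.18, SE 0.13, adjusted p = 0.98). On gel 0 of the 10 were free of overlap, beside 2.03% of all genes. The X-linked KLF8 differed by 0.09 (-0.29 to 0.47) on gel and -0.12 (-0.48 to 0.25) on plastic.

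**Figure D5:**
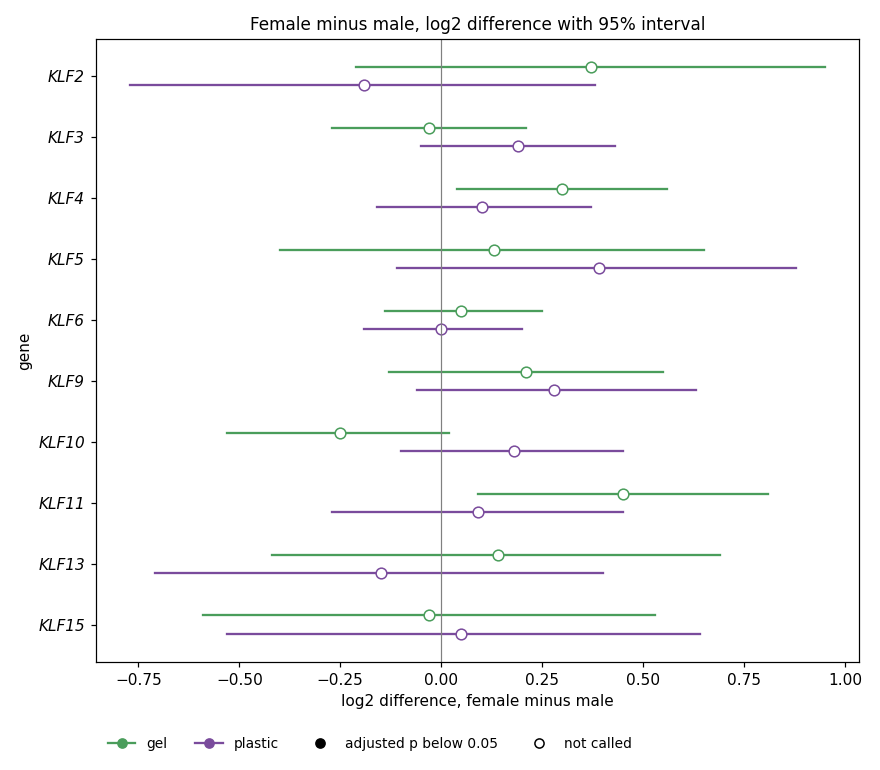
Log2 difference, female minus male, with its 95% interval for the 10 KLF genes on gel (green) and on plastic (purple). No point passed an adjusted p of 0.05; the intervals of KLF4 and KLF11 on gel lie above 0 before adjustment.

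The surface change itself was compared between the sexes by the difference of the 2 changes. None of the 10 was called, beside 0% of all genes (0 of 14530), and 1 member, KLF10, had an unadjusted p under 0.05, beside 633 of all genes. DESeq2 and limma-voom called 0 members too. KLF10 rose more in female cells by 0.43 (95% interval 0.05 to 0.82, unadjusted p = 0.0301, adjusted p = 0.767), and KLF2 less by a difference of -0.56 (-1.37 to 0.25, adjusted p = 0.767). The calls of KLF2 in male cells alone and of KLF10 in female cells alone therefore do not show a difference between the sexes. For KLF5, KLF6 and KLF15 the differences were 0.26 (-0.46 to 0.98), -0.05 (-0.32 to 0.22) and 0.08 (-0.73 to 0.89).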

How the data were processed

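The authors' deposited table gives raw counts per gene for 16 libraries. Per the submitters' processing notes the tools were FastQC 0.11.5, Trimmomatic 0.36, HISAT2 2.1.0, SAMtools 1.3.1 and featureCounts, with the build Sscrofa11.1. The strand setting and the treatment of reads shared between genes are not given in the sources used here, so reads of overlapping genes cannot be told apart. Of 29576 rows, 24 with a number in place of a gene name (0.169% of counts) were dropped. RefSeq gave a symbol and coordinates for each of the 29552 others. Sequences of the genes were not used here.

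Groups came from the sample titles. Genes were kept by filterByExpr (14530 of 22139 with a count), scaled by TMM (factors 0.896 to 1.12) and tested by edgeR 4.0.16 (R 4.3.3) with its quasi-likelihood test. The design had 1 mean per group, all 16 libraries and 12 residual degrees of freedom. Levels are CPM computed here from the deposited counts. The script was tested on simulated data. No library copied another of its group: chi-square per degree of freedom was at least 9.93 over 24 pairs. The replicate numbers pair libraries: after group means were subtracted, gel and plastic libraries of 1 number correlated in all 8 pairs (0.13 to 0.49), and 16 of 16 libraries matched their own number best within a sex, although the labels do not name shared animals.

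The 10 genes and the gene lists were chosen with earlier results of these data known. Named were all 10, the other KLF and SP genes, up to 3 called genes per direction of each other list by adjusted p in male cells, and the 3 genes most correlated with each member, of which a part is described. A gene that this rule names is not reported here. NR3C1, TSC22D3, PER1, SGK1, FKBP5, ZBTB16, SMAD7 and other genes outside this rule were picked after their values were seen. Alternatives were RLE factors, DESeq2 1.42.0, limma-voom (limma 3.58.1), 2 other filters, fits of 8 libraries, the replicate block and leaving out libraries. Figures used matplotlib 3.10.9.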

Additional observations from a re-analysis of the deposited data

How the results depend on the processing

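Over the 10 KLF genes, 486 of 500 surface changes under the alternatives kept their direction where called and their side of the threshold, and 0 reversed a call. Of the rest, 6 lost a call (KLF2 in male cells in 5, KLF10 in female cells in 1) and 8 gained one (KLF3 in male cells in 5, KLF10 in 2, KLF13 in 1). KLF5, KLF6 and KLF15 kept their calls in both sexes in every alternative run. All 480 sex differences and 240 differences of changes stayed uncalled. With the replicate as a block, 5 members were called in male cells (KLF3 was added) and 4 in female cells, of 4319 and 4011 genes, and the block changed no other member's call. Without male 4, female 1 and female 4 on both surfaces the female surface comparison called 1968 genes instead of 3476; that fit has fewer samples. Without those replicates 3 members were called in each sex, beside 3148 genes in male and 1968 in female cells of 14714 tested. Without male gel 2 and female plastic 4 there were 5 members in male and 4 in female cells, beside 4198 and 4291 genes of 14655 tested. A block could not be fitted for sex differences, since the replicates are nested in sex. Counts of KLF5 on gel, as low as 22, limit its precision.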

Other observations

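The SP factors are the closest relatives of the KLFs and bind the same GC-rich boxes. Of 9 SP genes in the table, SP1, SP2, SP3 and SP4 were tested. SP3, which acts as activator or repressor, fell in male cells by 0.55 on the log2 scale (SE 0.13, adjusted p = 0.00498), from 108, 160, 105 and 103 CPM in male gel to 81.1, 80.5, 80.9 and 83.2 CPM in male plastic. Without male gel 2, which stood above the rest, the change was -0.37 (adjusted p = 0.00635). In female cells SP3 changed by -0.15 (adjusted p = 0.423), and by -0.26 (adjusted p = 0.00225) with female plastic 4 and male gel 2 both left out. SP2 rose in male cells by 0.60 (SE 0.19, adjusted p = 0.0296), a call lost without male gel 3 (adjusted p = 0.0551), male plastic 1 (0.0667), male plastic 2 (0.0625) or male plastic 3 (0.0701) and in the fit of 8 libraries (0.0873); without male gel 2 the change was 0.40 (adjusted p = 0.0192). In female cells SP2 changed by 0.37 (adjusted p = 0.177) and was called without male gel 2 (0.37, adjusted p = 0.0145), with female plastic 4 and male gel 2 both left out (0.33, adjusted p = 0.0349) and in the fit of 8 libraries (0.37, adjusted p = 0.0395). The ubiquitous SP1 and SP4 were not called in either sex, with SP1 at -0.25 (adjusted p = 0.0785) in male and 0.00 (adjusted p = 0.984) in female cells. SP5, SP6, SP7, SP8 and SP9 did not pass the filter.

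Cofactors and ubiquitin ligases of the KLFs had 2 of 12 genes higher and 2 lower on plastic in male cells, and 3 higher and 0 lower in female cells. Of all genes, 25.8% and 23.9% were called in either direction. The acetyltransferase gene KAT2B rose by 0.83 (SE 0.15, adjusted p = 0.000606) and 0.93 (SE 0.15, adjusted p = 0.00024). WWP1, a ligase that targets KLF5, rose by 0.73 (SE 0.16, adjusted p = 0.00332) and 0.94 (SE 0.16, adjusted p = 0.000436). The deacetylase gene HDAC2 fell in male cells by 0.58 (SE 0.14, adjusted p = 0.00495) and changed by -0.23 (adjusted p = 0.245) in female cells. SIN3A, the scaffold that KLF10 and KLF11 bind, fell in male cells by 0.25 (SE 0.09, adjusted p = 0.0437) and changed by -0.16 (adjusted p = 0.224) in female cells.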
